A study of Homo sapiens with 6 samples.

Results

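Fatty acid synthesis and desaturation were followed through 10 genes, Fasn, Acaca, Acly, Scd1, Scd2, Fads1, Fads2, Elovl5, Elovl6 and Srebf1, chosen by name. All 10 were found in the table of 22989 genes and all 10 passed the filter on low counts, among 13497 genes tested. RNA was sequenced from 3 libraries labelled LINC00115 KD and 3 labelled WT. Both groups were described as breast cancer stem cells (BCSC) of paclitaxel-resistant MDA-MB-231, an established human line of triple-negative breast cancer, whose cells the study sorted for high aldehyde dehydrogenase activity. The KD cells carried a short hairpin RNA (shRNA) against the long noncoding RNA LINC00115 and were selected with puromycin. The study ties the RNA-seq comparison to the hairpin sh115-2, while the labels describe the KD libraries as sh115-1, sh115-2 and sh115-3 and do not say whether these are hairpins or replicates. They call the controls wild type where the study elsewhere used a control shRNA. The effect of the vector and that of the knockdown therefore cannot be told apart. Nothing in the labels says whether the libraries came from separate cultures, so the p-values measure only the spread between these libraries, which may be technical.

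Fatty acids are built in the cytosol from citrate. ATP citrate lyase (Acly) cleaves it to acetyl-CoA, acetyl-CoA carboxylase (Acaca) makes malonyl-CoA in the committed step, and fatty acid synthase (Fasn) joins these units to palmitate. Elongases lengthen the chain, stearoyl-CoA desaturases put in the double bond of monounsaturated fatty acids, and Fads1 and Fads2 act on polyunsaturated fatty acids. SREBP1, the product of Srebf1, is a membrane-bound transcription factor that is released by proteolysis and turns on most of these genes, and many tumors make fatty acids this way.

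The labels name the organism as human, while the table lists its genes by symbols in the style of mouse genes. Of its 22989 genes, 35.5% had no current or older human symbol, 4648 had mouse names of the Gm type and 1135 of the Rik type. Whether the table was made from the labelled human cells was not settled here, and each value below is that of the gene as the table names it. Of the 10 genes, 8 carry a current human symbol apart from case. Scd1 and Scd2 do not: RefSeq lists these names only as synonyms of the human genes SCD and SCD5. The table holds 0 rows named Scd and 0 named Scd5, and it does hold Scd3 and Scd4, as the mouse gene cluster does. No gene of the table is named LINC00115, so the knockdown could not be checked and every direction below rests on the labels. The libraries held between 36979221 and 38799331 counts. Of 13 mammary and breast cancer line markers in the table, 7 had all KD libraries above all WT libraries and 0 the reverse. Of all genes tested, 37.8% were higher in this way and 37.8% lower. The 13 markers include genes too low to be tested, which these shares leave out. The markers had sums of 4923 to 4984 normalized CPM in WT and 5550 to 5686 in KD. The mesenchymal gene Vim and Cd44 had at least 3368 and 872 normalized CPM in every library. Of the epithelial genes, Krt8 had 469 to 479 in WT and 726 to 766 in KD, and Krt18 had 129 to 130 and 231 to 242. Epcam had at most 0.132 in any library. The keratin genes Krt5 and Krt14 overlapped between the groups. Krt5 had 0, 0 and 92 counts in the WT libraries and 0 in each KD library. Krt14 had 7, 30 and 192 counts in the WT libraries and 31, 28 and 19 in the KD libraries. Both were highest in WT replicate 3, and the cause was not tested. The aldehyde dehydrogenase gene Aldh1a3 had at most 0.105 normalized CPM, and Aldh1a1 had 0.212 to 0.450 in WT and 1.06 to 1.34 in KD. Normalized CPM give a gene's count relative to the total of its library, scaled by the TMM method. They are not divided by gene length, so levels were compared between libraries and not between genes.

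The 10 genes did not move as a block. Scd1 and Acaca rose more than 2-fold in the KD libraries, Fads2 rose 1.84-fold, and Elovl5, Fasn and Srebf1 rose by smaller amounts. Scd2 and Acly fell, and Fads1 and Elovl6 did not pass the test. By edgeR's quasi-likelihood test with an adjusted p-value under 0.05, 6 of the 10 were higher and 2 lower, where 36.7% of all genes tested were higher and 36.7% were lower. With a fold change over 2 as well, 2 of the 10 were higher and 0 lower, against 10.2% and 9.98% of all genes, or 20.2% in either direction. The groups did not overlap for 8 of the 10 genes, as for 75.6% of all genes tested. The share of the 10 genes past the adjusted p-value, 8 of 10, lay close to the 73.4% of all genes. Their median log2 fold change was 0.29, against −0.01 over all genes tested.

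**Figure D1:**
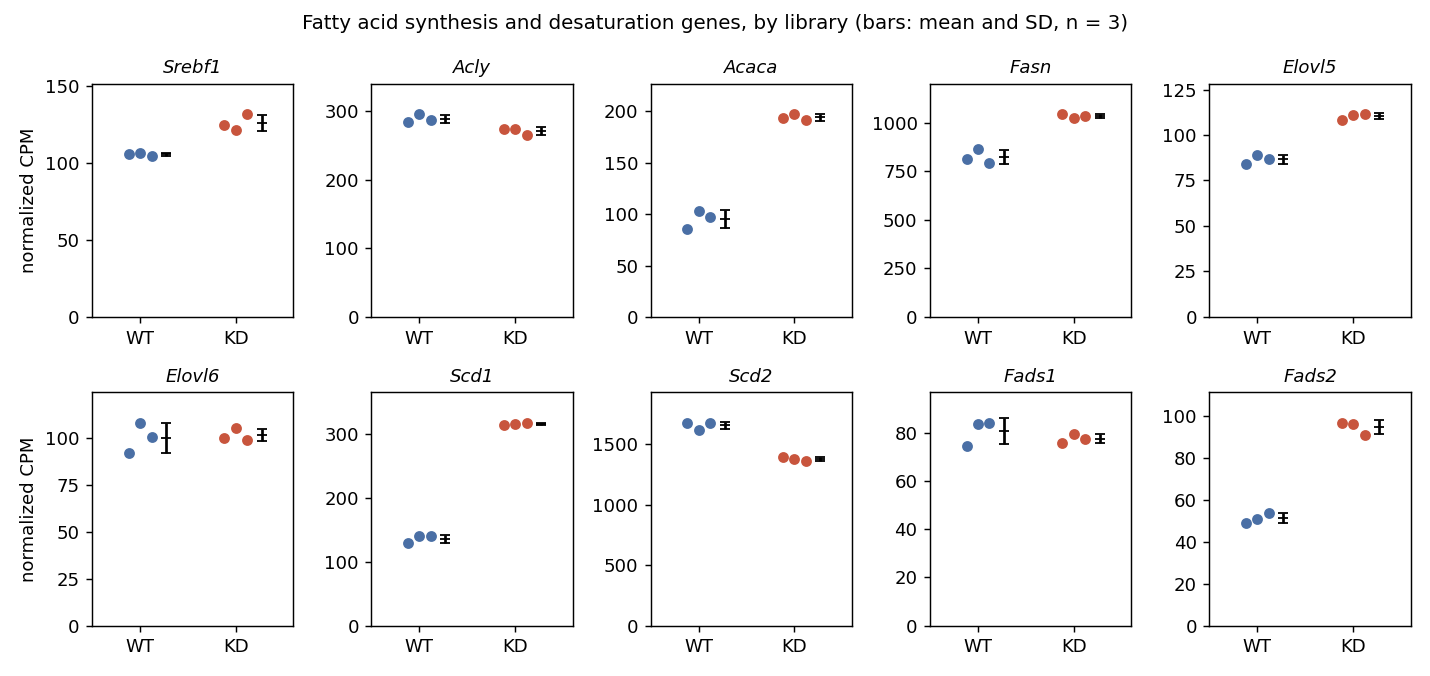
Normalized CPM (count relative to the TMM-scaled library total) of the 10 genes in each WT (blue) and LINC00115 KD (red) library, with the mean and SD of 3 libraries beside the points and each axis starting at 0. The groups are apart for 8 genes and overlap for Fads1 and Elovl6.

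Srebf1, which encodes the lipogenic SREBP1, had 106, 106 and 105 normalized CPM in the WT libraries and 125, 121 and 132 in the KD libraries. Every KD library lay above every WT library, and the rise was 1.19-fold (log2 fold change 0.25, SE of the log2 fold change 0.04, edgeR quasi-likelihood adjusted p = 2.23e-06). The change was larger in size than that of 30.1% of all genes tested. Srebf2, whose product drives sterol synthesis, rose further, from 299.8 ± 3.08 to 459 ± 6.41 normalized CPM (SD, n = 3 libraries each), with a log2 fold change of 0.62 (SE 0.03, adjusted p = 2.66e-18). Within each library, the ratio of Srebf1 to Srebf2 counts was 0.348 to 0.359 in WT and 0.267 to 0.288 in KD.

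Acly supplies the acetyl-CoA of the pathway. Its level was 284, 296 and 288 normalized CPM in WT and 274, 274 and 265 in KD. The groups did not overlap, but the fall was small, with a log2 fold change of −0.09 (SE 0.03, edgeR quasi-likelihood adjusted p = 0.0145). It did not pass the threshold without WT replicate 2 (−0.08, adjusted p = 0.0797) or without KD replicate 3 (−0.07, adjusted p = 0.122). Acss2 makes acetyl-CoA from acetate instead of citrate, and it rose from 20.8 ± 0.586 to 37.3 ± 1.56 normalized CPM (log2 fold change 0.84, edgeR quasi-likelihood adjusted p = 5.81e-13). The ratio of Acly to Acss2 counts went from between 13.4 and 14.3 in the WT libraries to between 6.93 and 7.72 in the KD libraries.

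Acaca, the carboxylase of the committed step, had 85.3, 103 and 97.0 normalized CPM in the WT libraries. In the KD libraries it had 193, 197 and 191, close to 2 times as much in each. The log2 fold change was 1.03 (SE 0.05, 95% interval 0.94 to 1.13, edgeR quasi-likelihood adjusted p = 4.74e-20), larger in size than that of 79.7% of all genes. The fold change stood at the limit of 2, and it lay under it with upper quartile scaling (log2 fold change 0.99) and without WT replicate 1 (0.96). Acacb, the carboxylase isozyme of the mitochondrial surface, had 10.5, 9.91 and 7.73 normalized CPM in WT and 9.82, 8.50 and 10.03 in KD. These overlapped, and its interval ran from −0.24 to 0.27 on the log2 scale (adjusted p = 0.925).

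Fasn carries out the chain synthesis itself. It was at 814, 866 and 795 normalized CPM in WT and at 1045, 1023 and 1038 in KD. All KD libraries lay above the WT libraries, with a log2 fold change of 0.33 (SE 0.03, edgeR quasi-likelihood adjusted p = 3.05e-11), a 1.25-fold rise. It therefore rose less than Acaca: the ratio of Fasn to Acaca counts fell from 9.54, 8.44 and 8.20 in the WT libraries to 5.41, 5.18 and 5.42 in the KD libraries.

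Elovl5 lengthens polyunsaturated chains and Elovl6 lengthens saturated and monounsaturated ones such as palmitate. Elovl5 had 84.2, 88.9 and 86.8 normalized CPM in WT and 108, 111 and 112 in KD, a log2 fold change of 0.35 (SE 0.04, edgeR quasi-likelihood adjusted p = 8.23e-09). For Elovl6 the values were 92.2, 108 and 100 in WT and 100, 105 and 99.0 in KD, so the groups overlapped. Its 95% interval was −0.08 to 0.12 (log2 fold change 0.02, adjusted p = 0.754), and the sign turned under upper quartile and library-size scaling and without WT replicate 1. The ratio of Elovl6 to Elovl5 counts was 1.09 to 1.22 in the WT libraries and 0.888 to 0.946 in the KD libraries.

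**Figure D2:**
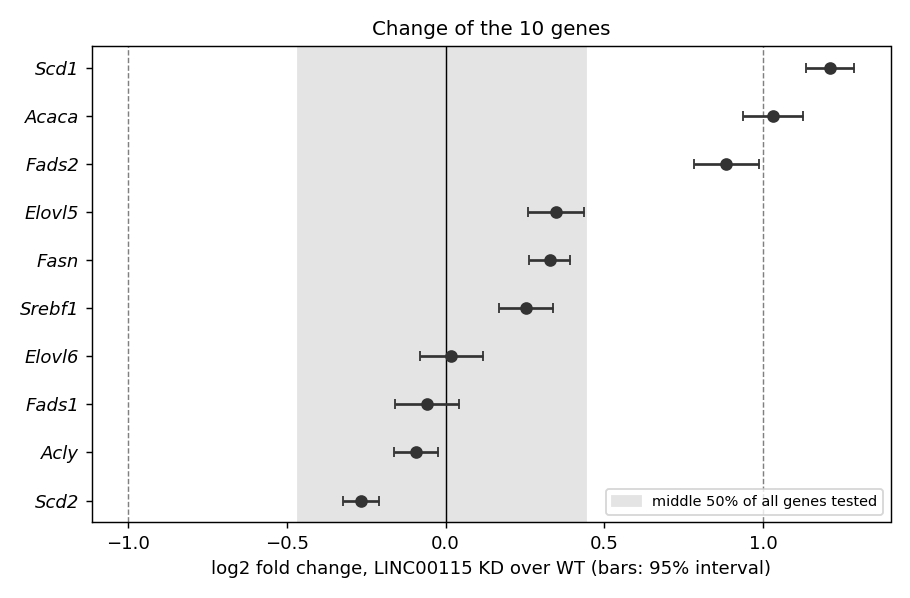
Log2 fold change of each of the 10 genes, LINC00115 KD over WT, with 95% intervals from edgeR's fit. The grey band holds the middle 50% of all genes tested and the dashed lines mark a fold change of 2, and Scd1, Acaca and Fads2 lie to the right of the band.

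The stearoyl-CoA desaturases moved in opposite directions. Scd1 had 129, 140 and 140 normalized CPM in the WT libraries and 313, 315 and 317 in the KD libraries. Its log2 fold change of 1.21 (SE 0.04, edgeR quasi-likelihood adjusted p = 6.76e-25) was the largest of the 10 genes, and 83.7% of all genes tested had a smaller change in size. Scd2, with many more counts, had 1676, 1620 and 1671 normalized CPM in WT and 1395, 1379 and 1357 in KD. It fell 1.20-fold (log2 fold change −0.27, SE 0.03, adjusted p = 2.57e-10), and no KD library reached the lowest WT library.

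Together Scd1 to Scd4 took 1801 ± 28.6 normalized CPM in WT and 1705 ± 18.1 in KD (SD, n = 3 libraries each). Scd1 gave 7.10%, 7.91% and 7.67% of these counts in the WT libraries and 18.2%, 18.4% and 18.8% in the KD libraries. Scd2 gave 91.6% to 92.4% in WT and 80.6% to 81.0% in KD. The summed level was thus lower in KD while the share of Scd1 was 2.44 times as large. Scd3 and Scd4 had few counts. Scd3 took at most 0.605% of the Scd counts and Scd4 at most 0.246% in any library, and their log2 fold changes were 0.35 and 1.06 (edgeR quasi-likelihood adjusted p = 0.0133 and 0.00185). The call of Scd3 was lost without WT replicate 1 (adjusted p = 0.0525, edgeR) and that of Scd4 without KD replicate 2 (adjusted p = 0.0505, edgeR). The Scd genes are close paralogs, and the sources used here do not say how reads that match more than 1 of them were counted, so the split among them is uncertain.

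**Figure D3:**
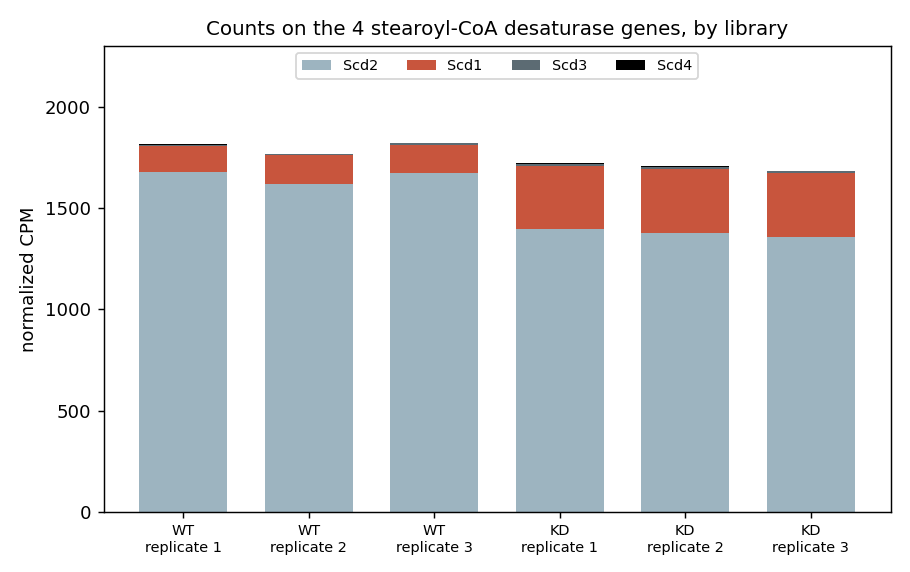
Stacked normalized CPM of Scd1 to Scd4 in each library, on an axis starting at 0. The red Scd1 segment is larger in each KD library, while the whole bar is slightly lower.

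Fads2, the Δ6-desaturase that opens polyunsaturated fatty acid synthesis, had 49.0, 51.0 and 54.0 normalized CPM in WT and 96.9, 96.4 and 90.9 in KD. The groups were far apart, with a log2 fold change of 0.88 (SE 0.05, 95% interval 0.78 to 0.99, edgeR quasi-likelihood adjusted p = 2.59e-17). Fads1, the Δ5-desaturase that acts later in the same route and whose gene lies beside Fads2, had 74.6, 83.4 and 84.0 normalized CPM in WT and 75.8, 79.2 and 77.5 in KD. These values overlapped, and the 95% interval of its log2 fold change was −0.16 to 0.04 (−0.06, adjusted p = 0.290). Without WT replicate 1, the lowest of the WT libraries, Fads1 passed the threshold as lower (−0.11, adjusted p = 0.0346). For Fads1 to Fads2, the ratio of counts, which is not corrected for gene length, was 1.52 to 1.64 in the WT libraries and 0.782 to 0.853 in the KD libraries.

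The ratios do not depend on how libraries were scaled, since both genes come from the same library. Of 6 ratios compared, all 6 separated the groups, with an exact two-sided permutation p of 0.1 each and 0.1 after adjustment over the 6. That is the smallest p that 3 libraries against 3 allow. The ratios restate the unlike changes of the single genes given above, and other gene pairs were not compared. On the log2 scale the differences between KD and WT were 1.48 for Scd1 to Scd2, −0.94 for Fads1 to Fads2, −0.94 for Acly to Acss2, −0.71 for Fasn to Acaca, −0.36 for Srebf1 to Srebf2 and −0.33 for Elovl6 to Elovl5. The SD within a group was at most 0.12 for any of them.

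**Figure D4:**
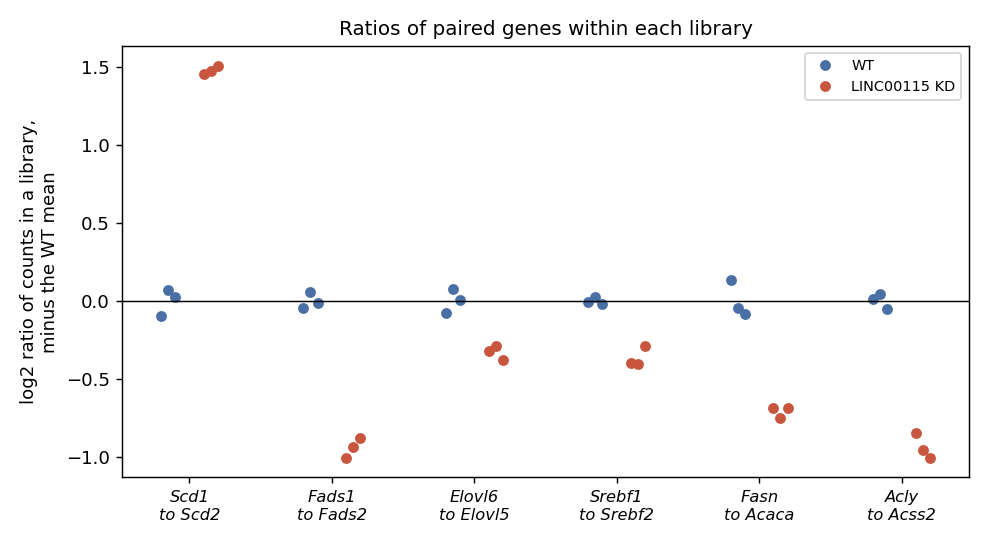
Log2 ratio of the counts of 2 genes within each library, set to 0 at the mean of the WT libraries, for 6 pairs. KD libraries (red) lie above WT (blue) for Scd1 to Scd2, by 1.48 on average, and below WT for the other pairs.

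In order of log2 fold change, Scd1 came before Acaca, Fads2, Elovl5, Fasn, Srebf1, Elovl6, Fads1, Acly and Scd2. The 95% intervals of neighbours overlapped for Acaca and Fads2, for Elovl5, Fasn and Srebf1 in turn, and for Elovl6, Fads1 and Acly in turn. They did not overlap between Scd1 and Acaca, Fads2 and Elovl5, Srebf1 and Elovl6, or Acly and Scd2. Precision was high at this depth: the 10 genes had from 1847 to 63161 counts in a library, and their coefficient of variation was 0.846% to 9.33% within WT and 0.612% to 4.27% within KD. The summed level of the 10 genes was 3395 to 3462 normalized CPM in the WT libraries and 3679 to 3727 in the KD libraries, so the KD libraries were higher in total although Scd2, the gene with the most counts, fell.

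The neighbouring steps of fatty acid metabolism were followed in 7 lists with 107 genes, of which 104 were in the table and 92 were tested. With the same test and adjusted p, 38 rose and 41 fell, and their median log2 fold change was 0.05. The share past the adjusted p was 85.9%, against 73.4% of all genes tested, with 36.7% higher and 36.7% lower. Those shares over all genes are the background for each list count below.

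Among genes that control SREBP and lipogenesis, 8 of 16 were higher and 5 lower, with a median log2 fold change of 0.31. Mid1ip1, whose product promotes the assembly of active acetyl-CoA carboxylase, rose most, from 21.0 ± 1.85 to 68.1 ± 1.84 normalized CPM (SD, n = 3 libraries each), with a log2 fold change of 1.69 (edgeR quasi-likelihood adjusted p = 2.19e-22). Insig1, which holds SREBP in the endoplasmic reticulum and is itself a target of SREBP, had 49.4, 49.2 and 45.1 normalized CPM in WT and 99.0, 95.3 and 89.9 in KD, a log2 fold change of 0.98. Rnf139 (0.80), the gene of a ubiquitin ligase of the endoplasmic reticulum, also rose. The escort protein gene Scap and the protease gene Mbtps1 did not pass edgeR's test (adjusted p = 0.0541 and 0.0565), and Mbtps2, the other SREBP protease, rose by 0.49. With DESeq2's size factors in the same test, 11 regulators were higher and 4 lower, as Scap, Mbtps1 and the sterol receptor gene Nr1h3, named after its values were seen, then passed (adjusted p = 0.0400, 0.0398 and 0.0492). Pparg, a regulator of fat storage chosen after its values were seen, had 31, 21 and 33 counts in the WT libraries and 6, 8 and 0 in the KD libraries. Mlxipl, the gene of the sugar-responsive factor ChREBP, and Ppara were too low to be tested.

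In the list for substrate and NADPH supply, 6 of 10 genes were higher and 3 lower (median log2 fold change 0.26). The mitochondrial citrate carrier gene Slc25a1 rose by 0.30, from 67.2 to 82.9 normalized CPM. Mlycd, which breaks malonyl-CoA down again, rose from 3.23 ± 0.272 to 7.56 ± 0.657 normalized CPM (log2 fold change 1.22). Genes that feed NADPH went both ways. G6pdx, the entry enzyme of the pentose phosphate pathway, fell from 319 ± 7.16 to 179 ± 4.56 normalized CPM (log2 fold change −0.83, edgeR quasi-likelihood adjusted p = 6.64e-21) and malic enzyme Me1 fell by 0.56 on the log2 scale, while Pgd (0.38) and Taldo1 (0.66), later in the pentose phosphate pathway, rose.

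Of the other desaturation and elongation enzymes, 7 of 12 were higher and 4 lower (median 0.29). Elovl7 rose from 7.53 ± 0.640 to 15.5 ± 0.885 normalized CPM (log2 fold change 1.04), Fads3 by 0.79 and Elovl1, an elongase of very long chains, by 0.54. Hacd1, a dehydratase of the elongation cycle, fell from 92.2 ± 2.25 to 47.0 ± 1.30 normalized CPM (−0.97). Fads6, Elovl2, Elovl4 and Degs2 were too low to be tested.

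Activation and esterification showed 7 of 19 genes higher and 9 lower (median −0.22). Lpin1, the phosphatidate phosphatase before diacylglycerol, fell from 34.9 ± 3.41 to 10.1 ± 0.583 normalized CPM (log2 fold change −1.79, edgeR quasi-likelihood adjusted p = 2.68e-19). Dgat2, which makes triglyceride, fell by 1.24 on the log2 scale, and Acsl4, which activates arachidonate, fell from 374 ± 17.4 to 224 ± 1.76 normalized CPM. Gpat3, an acyltransferase at the start of glycerolipid synthesis, rose from 8.70 ± 0.493 to 21.2 ± 1.04 (log2 fold change 1.28).

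The uptake, storage and lipolysis list had 6 of 13 genes higher and 6 lower (median −0.04). The fatty acid binding protein gene Fabp4 rose from 15.4 ± 1.68 to 45.9 ± 1.18 normalized CPM (log2 fold change 1.58, edgeR quasi-likelihood adjusted p = 1.58e-19). Hilpda, an inhibitor of lipolysis, fell from 37.6 ± 0.326 to 17.2 ± 1.26 normalized CPM (−1.13), and the lipase gene Lipe fell by 0.85 on the log2 scale. Of the mitochondrial fatty acid synthesis genes, 2 of 6 were higher and 1 lower, led by the malonyltransferase Mcat (0.94), and Cbr4 (0.41) and Ndufab1 (−0.12) also passed. The call of Cbr4 was lost without WT replicate 1, WT replicate 3 or KD replicate 1 (adjusted p up to 0.197, edgeR), and that of Ndufab1 without WT replicate 2 or 3 or KD replicate 1 or 3 (up to 0.142).

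Fatty acid oxidation, which runs opposite to synthesis, had the most one-sided count of the 7 lists: 13 of 16 genes tested were lower and 2 higher, where 36.7% of all genes tested were lower and 36.7% higher. Its median log2 fold change was −0.30. Acadm, the medium-chain acyl-CoA dehydrogenase, had 51.0, 49.6 and 54.1 normalized CPM in WT and 28.3, 28.3 and 26.9 in KD (log2 fold change −0.89, edgeR quasi-likelihood adjusted p = 6.22e-15). Cpt2, the inner carnitine palmitoyltransferase, fell by 0.75, Eci2 by 0.64 and Acads by 0.60 on the log2 scale. No gene of this list fell past a fold change of 2. Those that rose were Cpt1a, the gated entry step (0.32), and the long-chain dehydrogenase gene Acadl (0.50), both named after their values were seen.

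**Figure D5:**
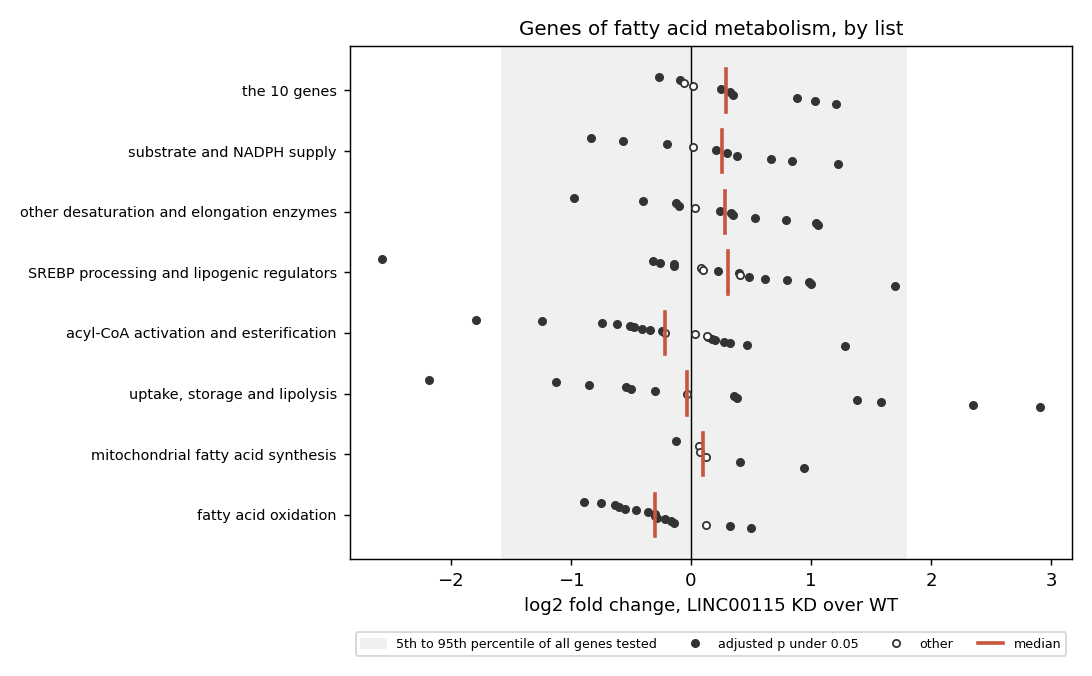
Log2 fold change of every tested gene in the group of 10 and in the 7 lists, with the median of each as a red line. Filled points have an adjusted p under 0.05, the band spans the 5th to 95th percentile of all genes tested, and the fatty acid oxidation median lies at −0.30 while that of the 10 genes lies at 0.29.

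Markers of other cells also differed between the groups. Over all genes tested, 37.8% had every KD library above every WT library and 37.8% the reverse. The marker counts below also take in genes too low to be tested, which these shares leave out. For all 10 lung epithelial genes, each KD library exceeded all WT libraries, and their summed level was 1.73 to 2.12 normalized CPM in WT and 74.6 to 85.6 in KD. Scgb1a1 and Sftpc were at 0 in all WT libraries. Of 10 kidney genes, 7 were higher in the same way, with sums of 1.24 to 1.46 and 18.5 to 21.98. Lung alveolar cells make much lipid for surfactant, and the part of such RNA in the changes of the 10 genes was not tested. In bulk RNA, fewer cells of a type and less RNA per cell cannot be told apart. Defining genes of fat cells were at or near 0, with Adrb3 at 0 and Adipoq at most 0.186 normalized CPM in any library. In every KD library 2 fat cell genes, Fabp4 and Car3, were higher and 1, Pparg, was lower. Pparg had 0.556 to 0.873 in WT and at most 0.218 in KD. Car3 had 0 in WT and at most 0.191 in KD. The summed level of the 9 fat cell genes in the table, 14.4 to 18.0 in WT and 45.7 to 47.6 in KD, was almost all Fabp4, which fat cells share with other cells. The 8 liver genes in the table summed to at most 1.37 normalized CPM, with 2 higher in every KD library. Among 11 leukocyte genes, 4 were higher and 1 lower in every KD library, with sums of 71.9 to 86.0 in WT and 144 to 159.7 in KD, and Cd3e was at 0 in every library. Most of that difference was S100a8, at 32.2 to 34.4 in WT and 87.9 to 99.0 in KD. Lyz2, Cd74 and S100a9 were the others higher in every KD library. Lyz2 had 0.132 to 1.38 in WT and 6.44 to 6.81 in KD. Cd74 had 0.768 to 1.22 and 2.56 to 3.98, and S100a9 had 0 to 0.0529 and 1.26 to 1.85. Cd68 overlapped between the groups, and Ptprc, Csf1r and Itgam had at most 0.336 normalized CPM in any library. Csf1r was the gene counted as lower, at no more than 0.0795. Their part in the results was not tested either.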

How the data were processed

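RNA-seq libraries of the 2 groups, 3 each, were read from 1 table of raw counts per gene. The authors trimmed adapters, mapped the reads with HISAT2 and deposited the counts without normalization. The methods name hg19 and the submitters' processing notes name hg38 and featureCounts. Both are human builds, while the genes counted carry symbols in the style of mouse genes. The annotation and strand setting are not given in the sources used here. No column of values was left out, and 0 genes had a blank name.

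Genes were kept by filterByExpr of edgeR 4.0.16 in R 4.3.3 (minimum count 10, minimum total 15), scaled by TMM and fitted with the group as the only term. The quasi-likelihood test was used, with p-values adjusted by Benjamini-Hochberg over 13497 genes. The thresholds were an adjusted p under 0.05 and, where stated, a fold change over 2. Standard errors (SE) were derived from each log2 fold change and its F statistic. Replicates of a group differed by at least 3.94 times what counting alone gives (chi-square over its degrees of freedom), so none was a copy. The pipeline was also run on simulated data, with changes of at least 2-fold planted in well-counted genes, and the outcome is not reported here. Many changes above are smaller, and that run cannot tell how well such changes are found.

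The 10 genes, the 7 pathway lists and the 6 marker lists were chosen with earlier results of these data known. From each pathway list were named up to 4 genes with the largest change among those past the adjusted p, with a count of 100 or more in each library of whichever group was higher and no overlap, and any such gene past a fold change of 2. A few others are named for their role. Ratios were compared by exact permutation. Alternatives were other scalings, other low-count filters, DESeq2 1.42.0, a fold threshold of 1.5, the replicate number as a block and each replicate left out. No sequence is printed, because no mouse reference was used. Some genes that entered the list counts are not reported here.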

Additional observations from a re-analysis of the deposited data

How the results depend on the processing

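The 6 genes called higher among the 10 stayed higher, past the adjusted p, in every alternative fit. With upper quartile scaling, 1 of them instead of 2 passed a fold change of 2, since Acaca fell just under it, and with each replicate left out 1 to 2 did. The number of the 10 genes called lower was 1 to 3 with each replicate left out, as Acly lost its call and Fads1 gained one (log2 fold changes −0.105 to −0.0699 for Acly and −0.112 to −0.0270 for Fads1). Elovl6, which passed the test in no fit, had a log2 fold change of −0.0231 with upper quartile scaling, −0.00156 with library size only and −0.0393 to 0.0769 with each replicate left out.

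For the pathway lists, DESeq2's Wald test called 3 SREBP and lipogenic regulators lower instead of 5, and it and the fit without a low-count filter called 0 mitochondrial fatty acid synthesis genes lower instead of 1. With each replicate left out, genes called lower numbered 3 to 5 among the regulators, 2 to 4 among the other desaturation and elongation enzymes, and 0 to 1 in mitochondrial fatty acid synthesis, where 1 to 2 were higher. In fatty acid oxidation 11 to 12 genes were called lower, against 13 with all libraries, and 2 to 3 higher. The regulators called higher numbered 8 to 11 over all alternatives, against 8, with the most under DESeq2's size factors. Over all genes, the filter of at least 10 counts in every library changed the numbers past a fold change of 2. With it, 903 instead of 1381 were higher and 919 instead of 1347 were lower. A fold threshold of 1.5 gave 2456 lower and 2463 higher genes. The causes of these changes were not tested.

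With the replicate number as a block, 6 of the 10 genes were higher and 2 lower, the same as without it, and 4932 genes were higher and 4906 lower in all. Same-numbered libraries did not deviate together over all genes tested (correlations of 0.0041, −0.018 and −0.017). These values take all genes at once and do not show whether such libraries shared a culture or a batch. A paired exact permutation of the 6 ratios gave a p of 0.25 each, the smallest that 3 pairs allow. Counts of few-count genes such as Scd4 and Pparg limit what can be said of them.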
